A study of Danio rerio with 16 samples.

Results

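Genes known for their work in the oocyte were read in RNA from zebrafish testis, to see at what level oocyte RNA stood there and whether estrogen or triploidy changed it. They came from a list of 30 names, drawn up with earlier results of these data known, and 29 of them matched a gene among the 32520 genes of the count table. No gene matched nobox by symbol. Of the 29 genes, 19 passed the filter on low counts and were tested, and 10 did not.

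The oocyte builds its own growth signals, its egg coat and a store of RNA and protein for the embryo, and most genes of this list are used for those tasks. In zebrafish the juvenile gonad can begin to form oocytes in either sex, and fish that lose their oocytes become males. Estrogen made by aromatase in the ovary helps to keep oocytes, and exposure of males to estrogen is known to feminise the gonad in some settings. A testis that holds oocytes would be read as RNA of the egg coat genes and of the oocyte growth factors.

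The samples were testes of AB strain zebrafish in 4 groups of 4 libraries: diploid control, diploid with EE2 (17α-ethinylestradiol, an estrogen made as a drug), triploid control and triploid with EE2. All were male gonads, and triploid fish carry an additional set of chromosomes. How much EE2 was given and for how long, how old the fish were and how many made up a library is not given in the sources used here. Triploid EE2 replicate 2 is called an outlier in its own title, so it was left out of the main fit. Its values for the genes given per library are given apart. This left 3 libraries in that group. An alternative fit included it.

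Libraries held 7052508 to 17369549 read pairs assigned to genes. Diploid control replicate 1 stood apart in its composition, with a TMM factor of 0.773 against 0.964 to 1.07 in the other 15 libraries. Values per library are CPM, read pairs relative to library size after scaling by TMM factors (a normalisation for library composition), and levels between genes are TPM, which also divides by gene length. A gene is called changed where the adjusted p is under 0.05 in edgeR's quasi-likelihood test with Benjamini-Hochberg adjustment over the 23007 genes tested. A germ cell gene and a Sertoli cell gene were present in every library, which was not a test of testis against ovary. The germ cell helicase gene ddx4 stood at 835 to 1109.8 CPM over the 16 libraries and the Sertoli cell hormone gene amh at 83.6 to 1222 CPM. The ovarian somatic genes cyp19a1a (aromatase) and foxl2a reached at most 0.316 and 0.218 CPM, from 3 and 2 read pairs. They were the lowest of the 15 matched ovarian somatic genes, of which 10 to 13 reached 0.5 CPM in each library compared, among them foxl2b at 2.82 to 6.32 CPM and the progesterone receptor gene pgr at 17.7 to 112 CPM. The egg yolk precursor gene vtg1, a standard sign of estrogen exposure, stood at 0.438 to 1.52 CPM in the 8 controls. It stood at 90.8 to 1219 CPM in diploid EE2 and at 17.5 to 281 CPM in triploid EE2, with the titled outlier at 72.1 CPM.

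Not every gene of the list was scarce in testis. In diploid controls the mean TPM of 11 of the 29 genes lay above the median of all genes with a count, which was 3.83 TPM. The highest was zp3d.2, an egg coat gene, at 34.8 ± 6.93 TPM (SD, n = 4), above 89.5% of those 30936 genes. Next came the nucleoplasmin gene npm2b at 15.7 ± 3.89 TPM, the RNA-binding protein gene rbpms2a at 13.5 ± 3.91 TPM, npm2a at 10.2 ± 2.05 TPM and the histone mRNA-binding protein gene slbp2 at 9.79 ± 2.91 TPM (SD, n = 4 each). For scale, ddx4 stood at 469 ± 189 TPM (SD, n = 4). The list as a whole was not silent in these testes.

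**Figure D1:**
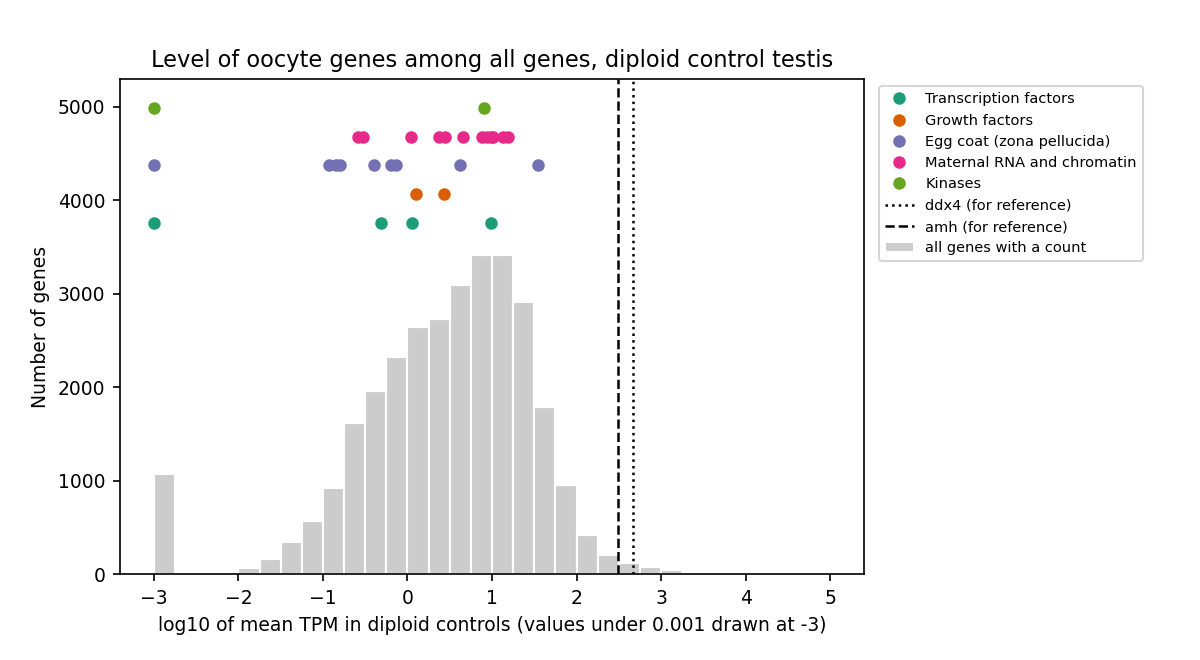
Mean TPM in diploid controls (n = 4) on a log10 axis, with the histogram of all genes that had a count and the genes of the oocyte list as points; lines mark ddx4 and amh. The height of a point only separates the roles, the 3 genes at 0 TPM are drawn at the left edge, and the points run up to 34.8 TPM for zp3d.2.

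Detection in every library of a group was alike in number over the groups at 0.5 CPM, and less so at other levels. At a minimum of 0.5 CPM, 18 of the 29 genes were detected in every library of each group, and these were the same 18 genes in all 15 libraries compared. Another 5 genes (figla, zp2.1, zp2.2, zp2.3 and mos) reached 0.5 CPM in no library. The remaining 6 (zp3, zp3a.1, zp2.5, ca15b, h1m and foxl2l) reached it in some libraries. At 0.1 CPM, 20 genes were detected in every library of diploid controls, 24 of diploid EE2, 20 of triploid controls and 22 of triploid EE2. At 1 CPM these numbers were 16, 15, 14 and 16. Genes that reached 1 CPM in no library of the group numbered 12, 6, 11 and 11, in the same order. In diploid EE2, h1m, zp2.5 and zp3a.1 reached 1 CPM in replicate 4 only. The numbers for triploid EE2 rest on 3 libraries. The summed CPM of the list was 256 ± 55.1 in diploid controls, 314 ± 22.7 in diploid EE2, 232 ± 16.6 in triploid controls and 259 ± 11.6 in triploid EE2 (SD, n = 4, 4, 4 and 3). The full sum in diploid EE2 (292 to 346 CPM) overlapped diploid controls (219 to 338 CPM). It lay above triploid controls (212 to 253 CPM) and triploid EE2 (251 to 273 CPM). Without rbpms2a and rbpms2b the sums were 197 ± 47.9, 172 ± 36.8, 199 ± 15.8 and 198 ± 15.4 CPM, and their ranges overlapped in all groups. As rbpms2a and rbpms2b were left out for their values in these data, that overlap carries no test.

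**Figure D2:**
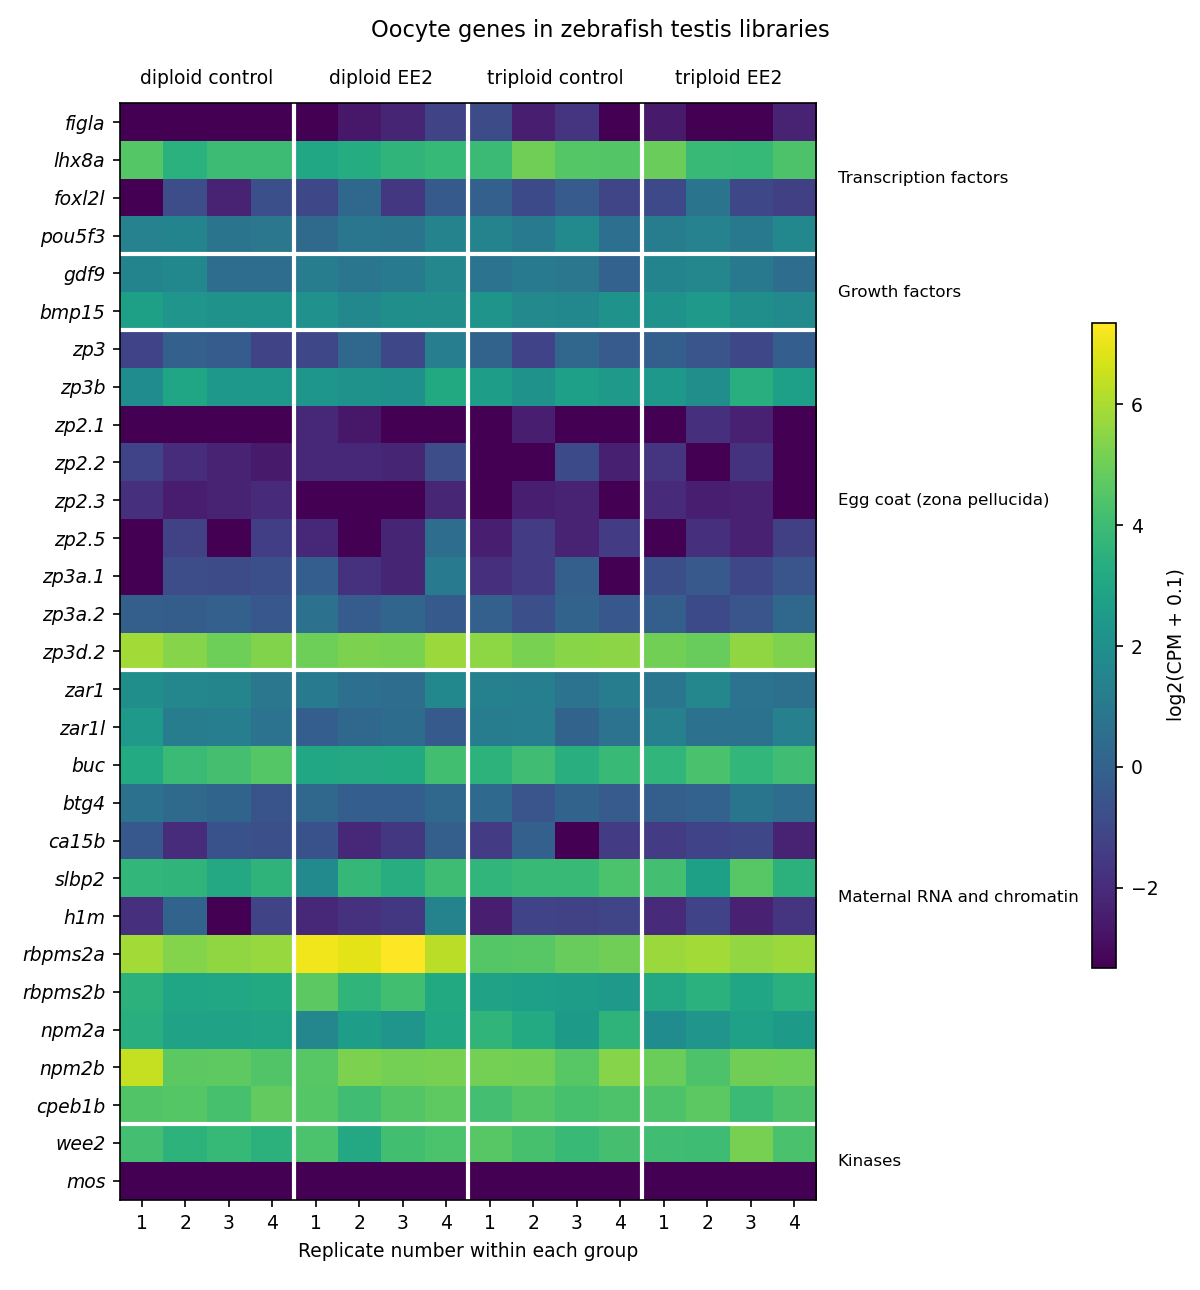
Level of the 29 matched genes (rows) in the 16 libraries (columns), as log2(CPM + 0.1). The rows keep much the same shade across the 4 groups, apart from rbpms2a and rbpms2b and single libraries such as diploid EE2 replicate 4 for h1m and zp2.5. Triploid EE2 replicate 2 is the titled outlier.

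The oocyte growth factors did not pass the test in any comparison. The gene gdf9 (ENSDARG00000003229, chromosome 14, 22457230 to 22464183, GRCz11) encodes a TGF-beta ligand that the oocyte sends to its follicle cells. It stood at 2.70, 3.09, 1.31 and 1.30 CPM in diploid control replicates 1 to 4 and at 2.15, 1.71, 2.01 and 2.99 CPM in diploid EE2. It stood at 1.58, 2.07, 1.79 and 0.917 CPM in triploid controls and at 2.70, 1.88 and 1.32 CPM in triploid EE2 replicates 1, 3 and 4. All 4 groups overlapped. The log2 change with EE2 was 0.09 in diploids (95% interval -0.67 to 0.84, adjusted p = 0.93) and 0.31 in triploids (-0.50 to 1.13, adjusted p = 1.0).

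Its relative bmp15 (ENSDARG00000037491, chromosome 7, 51768343 to 51775688), which keeps oocytes and the female state in zebrafish, had somewhat more reads. It stood at 6.59, 4.67, 4.36 and 4.27 CPM in diploid controls and at 4.16, 3.10, 3.84 and 3.82 CPM in diploid EE2. In CPM every exposed library thus lay under every control, which depends on the unit. In TPM bmp15 stood at 2.70 ± 0.563 in diploid controls and 2.38 ± 0.384 in diploid EE2 (SD, n = 4 each). The log2 difference of -0.39 (95% interval -0.82 to 0.04, adjusted p = 0.34) did not pass the test. Triploid controls stood at 4.47, 3.19, 3.05 and 4.31 CPM and triploid EE2 at 4.23, 3.86 and 3.36 CPM, which overlapped. A gene on the other strand, got2b, overlaps bmp15, and the counting used strand.

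Among the transcription factors, figla (ENSDARG00000087166, chromosome 5, 13839316 to 13848296), which is needed to form follicles and switches on egg coat genes in mice, was close to undetected. It had 0 read pairs in each of the 4 diploid controls, which allows up to 0.217 to 0.507 CPM per library at a floor of 3 counts. It had 0 to 3 read pairs in diploid EE2 libraries, 0 to 5 in triploid controls and 0 to 1 in triploid EE2. Its highest level, 0.438 CPM from 5 read pairs, was in triploid control replicate 1, above that library's floor of 0.263 CPM. In a fit with no filter on low counts figla had an unadjusted p of 0.015 for triploid against diploid controls, 0.035 for EE2 in diploids and 0.019 for the interaction. None passed adjustment (edgeR adjusted p = 0.22, 0.31 and 0.95). The gene foxl2l marks germ cells that commit to the oocyte fate in zebrafish. It stood at 0, 0.475, 0.109 and 0.506 CPM in diploid controls, 0.403, 1.08, 0.229 and 0.717 CPM in diploid EE2, 0.876, 0.430, 0.737 and 0.367 CPM in triploid controls and 0.416, 0.396 and 0.305 CPM in triploid EE2. These rest on 0 to 17 read pairs per library compared and overlapped in all groups.

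The homeobox gene lhx8a, needed in mice for early oocyte growth, was well measured. It stood at 23.5, 11.1, 15.8 and 15.9 CPM in diploid controls, 8.45, 9.74, 12.4 and 14.1 CPM in diploid EE2, 15.3, 32.5, 23.1 and 22.4 CPM in triploid controls and 29.9, 14 and 20.9 CPM in triploid EE2. Its lowest library under triploid EE2 lay just under the highest of diploid EE2. The log2 difference of triploid from diploid under EE2 was 0.95 (95% interval 0.31 to 1.59, adjusted p = 0.077). DESeq2 gave 0.96 with an adjusted p of 0.029, so that its call depends on the tool. It was chosen for mention after its values were seen. The pluripotency factor gene pou5f3, whose RNA the mother loads into the egg, stood at 1.21 to 3.27 CPM over the 16 libraries and passed no test.

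Egg coat genes were the main check, since their proteins form the chorion. The 9 matched zp genes gave 4 that were tested, zp3, zp3b, zp3a.2 and zp3d.2, and none was called in any comparison. The gene zp3b (ENSDARG00000039828, chromosome 2, 6253246 to 6258796) stood at 3.55, 7.92, 5.12 and 5.14 CPM in diploid controls and at 4.83, 4.43, 4.02 and 8.96 CPM in diploid EE2. It stood at 6.22, 4.39, 6.43 and 5.22 CPM in triploid controls and at 5.06, 10.3 and 6.52 CPM in triploid EE2. The groups overlapped, with a log2 change with EE2 of 0.01 in diploids (95% interval -0.64 to 0.66, adjusted p = 0.99) and 0.38 in triploids (-0.31 to 1.06, adjusted p = 1.0).

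The most abundant member, zp3d.2 (ENSDARG00000070178, chromosome 16, 42048362 to 42056137), stood at 58.5, 42.8, 32.2 and 40.0 CPM in diploid controls and at 31.7, 38.1, 36.7 and 53.5 CPM in diploid EE2. In triploids it stood at 46.7, 36.5, 43.6 and 45.1 CPM in controls and 34.0, 48.3 and 39.6 CPM under EE2. Its log2 differences were -0.10 and -0.09 for EE2 in diploids and triploids and 0.01 for triploid against diploid controls. Each 95% interval for the 2 EE2 comparisons lay within -0.52 to 0.33.

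The zp2 genes of the list (zp2.2, zp2.3, zp2.1 and zp2.5) sit in 1 cluster of chromosome 20, at 54290356 to 54316972, a span of 26617 bases. That span also holds zp2.6, which is not on the list and had 0 read pairs in 15 libraries. On the same chromosome zp3a.1 and zp3a.2 lie together at 33987465 to 33993698. The counting left out reads with several alignments by its default, so the levels of such near copies are uncertain. The genes zp3 and zp2.5 also overlap a gene on the same strand, zgc:173556 and si:zfos-1505d6.7. Within those limits, zp2.1, zp2.2 and zp2.3 had 0 to 4 read pairs in any library.

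RNA of genes for the egg's RNA store was present throughout. The gene buc (ENSDARG00000096095, chromosome 2, 27855102 to 27859558) encodes the organiser of the Balbiani body, a large aggregate of mitochondria and RNA in the young oocyte. It stood at 9.13, 15.6, 18.6 and 23.0 CPM in diploid controls and 8.05, 8.54, 8.83 and 17.1 CPM in diploid EE2. Triploid controls held 11.9, 16.6, 10.1 and 14.6 CPM and triploid EE2 12.8, 13.3 and 16.9 CPM. The groups overlapped, and the log2 difference with EE2 in diploids was -0.65 (95% interval -1.25 to -0.05, adjusted p = 0.25).

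The gene zar1 (ENSDARG00000019706, chromosome 20, 23423814 to 23426339) encodes an RNA-binding protein that keeps maternal mRNA from being translated too early. It stood at 3.89, 3.01, 2.83 and 1.81 CPM in diploid controls, 2.01, 1.39, 1.32 and 3.11 CPM in diploid EE2, 2.45, 2.32, 1.58 and 2.2 CPM in triploid controls and 1.73, 1.59 and 1.43 CPM in triploid EE2. The log2 difference with EE2 was -0.56 in diploids and -0.44 in triploids (adjusted p = 0.37 and 1.0).

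Its relative zar1l (chromosome 10, 33999869 to 34002185) was chosen for mention after its values were seen. It stood at 5.41, 2.22, 2.29 and 1.59 CPM in diploid controls and at 0.805, 1.08, 1.26 and 0.717 CPM in diploid EE2, with no overlap. The log2 difference was -1.45 (95% interval -2.30 to -0.60, adjusted p = 0.072), which did not pass. It passed in 1 of 8 omissions of a single library, at -1.67 without diploid control replicate 4 (adjusted p = 0.045). Over the 8 omissions it ran from -1.67 to -1.01, the weakest without diploid control replicate 1, with adjusted p up to 0.15. Triploid controls stood at 2.19, 2.24, 0.948 and 1.56 CPM and triploid EE2 at 2.43, 1.49 and 2.44 CPM, a log2 difference of 0.27 (adjusted p = 1.0). The test of the difference between diploids and triploids gave a log2 of 1.73 (95% interval 0.51 to 2.94, adjusted p = 0.80).

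Among the chromatin and RNA-processing genes, npm2b encodes an egg nucleoplasmin that loosens sperm chromatin. It stood at 84.5, 25.3, 26 and 22.1 CPM in diploid controls, 23.8, 37.7, 35.0 and 35.7 CPM in diploid EE2, 34.3, 33.8, 24.1 and 42.4 CPM in triploid controls and 30.8, 32.6 and 32.1 CPM in triploid EE2. In CPM diploid control replicate 1 was far above the other 15 libraries, which stood at 20.5 to 42.4 CPM. This depends on the unit. In TPM npm2b stood at 15.7 ± 3.89 in diploid controls and 17.7 ± 3.19 in diploid EE2 (SD, n = 4 each). Its paralog npm2a stood at 10.5, 6.97, 6.97 and 7.38 CPM in diploid controls, 2.95, 6.33, 4.70 and 8.00 CPM in diploid EE2, 12.5, 9.13, 5.48 and 12.1 CPM in triploid controls and 3.53, 6.84 and 5.50 CPM in triploid EE2. The groups overlapped, and the log2 difference with EE2 in triploids was -0.91 (95% interval -1.63 to -0.19, adjusted p = 0.69).

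The gene slbp2 encodes the form of the histone mRNA-binding protein that frogs and fish use in oocytes. It stood at 13.4, 12.5, 8.6 and 12.3 CPM in diploid controls, 3.35, 13.5, 9.98 and 16.5 CPM in diploid EE2, 13, 14.6, 14.5 and 19.8 CPM in triploid controls and 17.6, 24.0 and 11.6 CPM in triploid EE2, with overlap in all groups. The translation regulator cpeb1b stood at 15.4 to 27.9 CPM over the 16 libraries, wee2, a kinase that holds mouse oocytes in meiotic arrest, at 8.6 to 36.2 CPM and btg4, an adaptor for maternal mRNA decay in mice, at 0.579 to 1.68 CPM. None passed the test in any comparison. The carbonic anhydrase gene ca15b had 0 to 10 read pairs per library and was not tested. The kinase gene mos, which drives oocyte maturation, had 0 read pairs in all 16 libraries, which allows up to 0.172 to 0.507 CPM per library.

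Diploid EE2 against diploid control asked whether estrogen brought oocyte RNA into the testis. Of the 19 tested genes, 1 was called higher (rbpms2a) and 0 lower. Over all genes tested 2.36% were called, with 1.94% higher and 0.422% lower. The median log2 change was -0.10 over the 19 genes and -0.01 over all genes tested. An unadjusted p under 0.05 was found for 4 genes (rbpms2a, rbpms2b, zar1l and buc), 21.1% of the list where 16.9% of all genes had one. Of the 19 log2 changes 7 were above 0. The direction depended on the unit for zp3d.2, btg4, slbp2, npm2b and cpeb1b. Their log2 changes were below 0, while their mean TPM was higher in diploid EE2 than in diploid controls (zp3d.2 38.0 against 34.8). In CPM the groups did not overlap for 3 genes (bmp15, zar1l and rbpms2a), which is 15.8% where 8.88% of all genes did not overlap. Among the 18 genes not called, the upper end of the 95% interval was under a 2-fold rise for 15, and it was above it for zp3, zp3a.2 and rbpms2b.

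In triploids, 0 of the 19 tested genes were called by edgeR, where 0.104% of all genes were called (0.0609% higher and 0.0435% lower). At an unadjusted p under 0.05 there were 2 (rbpms2a and npm2a), 10.5% where 5.42% of all genes had one, and DESeq2 called 1 (rbpms2a) and limma-voom 0. The median log2 change was 0.09 over the 19 genes and 0.01 over all genes, and the upper end of the interval was under a 2-fold rise for 12 of the 19. The groups did not overlap for rbpms2a and rbpms2b, 10.5% of the genes where 8.87% of all did not overlap.

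**Figure D3:**
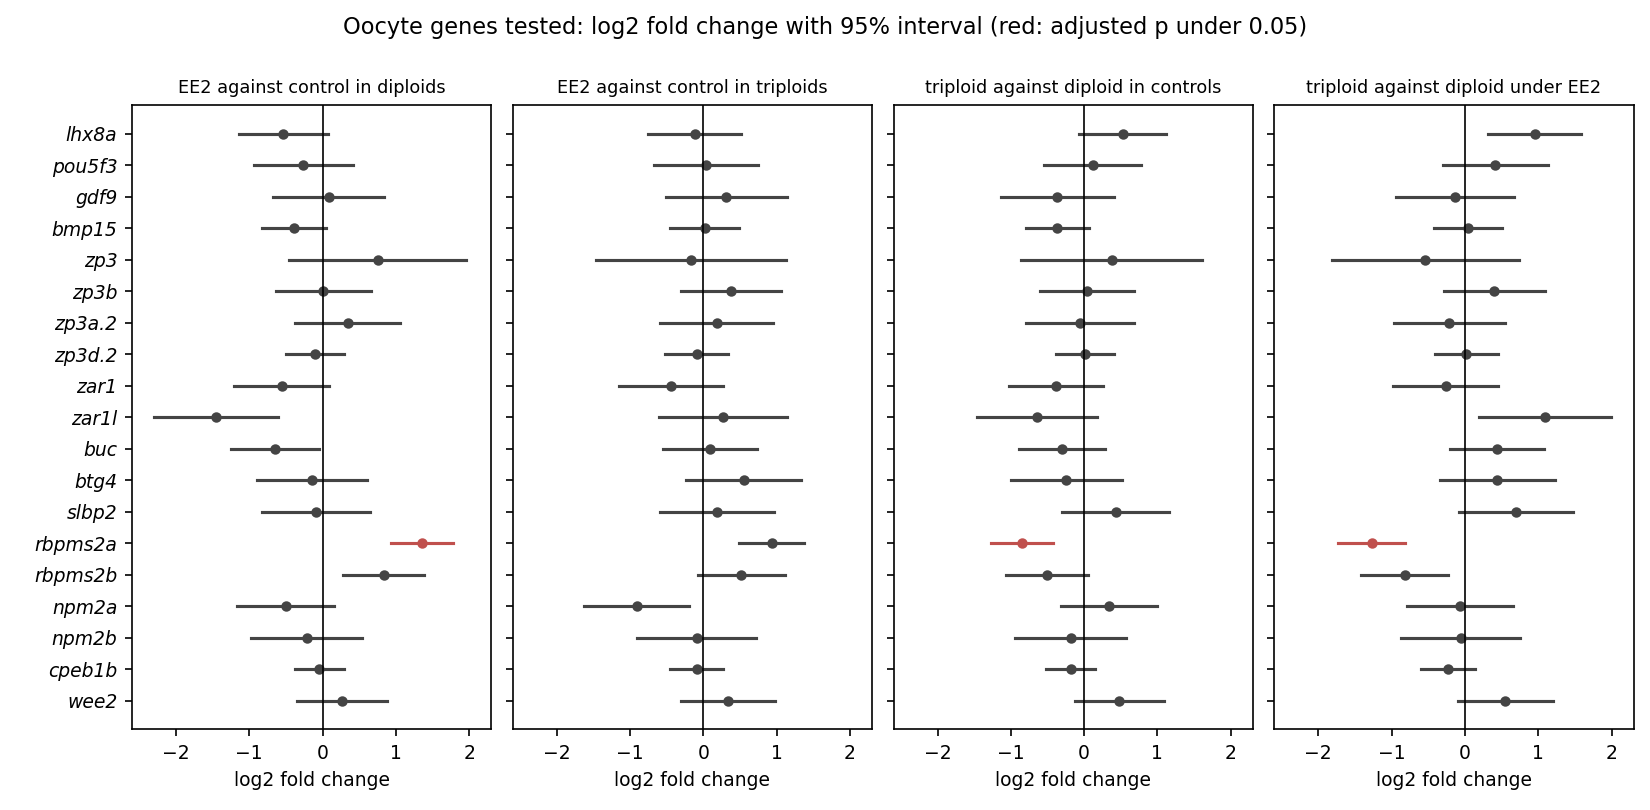
Log2 fold changes with 95% intervals for the 19 tested genes in the 4 comparisons, with those past an adjusted p of 0.05 in red. Points in red are rbpms2a in 3 panels, higher with EE2 in diploids and lower in triploids in controls and under EE2; intervals of most other genes cross 0.

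Between triploid and diploid controls, 1 of 19 genes was lower (rbpms2a) and 0 higher, where 2.74% of all genes were called (2.16% lower and 0.574% higher). Under EE2 the same held, with 1 of 19 lower (rbpms2a) and 0 higher, where 5.82% of all genes were called (4.77% lower and 1.05% higher). The median log2 differences of the list were -0.18 and 0.02, against -0.04 and 0.00 over all genes. The groups did not overlap for rbpms2a and rbpms2b in controls, where 11.6% of all genes did not, and for zar1l and rbpms2a under EE2, where 20.3% did not. In the test of whether the response to EE2 differed with ploidy, edgeR called 0 of 19 genes and 0 of all 23007 (a share of 0). Of the 19, 1 (zar1l) had an unadjusted p under 0.05, 5.26% where 5.32% of all genes had one, and DESeq2 and limma-voom each called 0 of the 19.

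The only gene of the list called changed in the main fit was rbpms2a (ENSDARG00000045930, chromosome 25, 6122823 to 6153077). Rbpms2 proteins bind RNA, and zebrafish that lack both rbpms2 genes cannot make oocytes that progress and develop as males. In chicken the protein also marks precursors of gut smooth muscle. It stood at 58.0, 41.0, 48.4 and 52.0 CPM in diploid controls and at 139.7, 122, 164 and 75.9 CPM in diploid EE2, so every exposed library was above every control. The log2 change was 1.35 (95% interval 0.93 to 1.77, adjusted p = 0.0019). It passed in each of the 8 omissions of a single library, with adjusted p from 3.6e-04 to 0.0099.

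In triploids rbpms2a stood at 23.3, 23.7, 29 and 32.9 CPM in controls and at 53.9, 49.0 and 53.8 CPM under EE2, again with no overlap. The log2 difference was 0.93 (95% interval 0.48 to 1.38, adjusted p = 0.19), which did not pass. Fitted on the compared groups alone it had an adjusted p of 0.047, and DESeq2 gave 0.013. The test of the difference between the responses gave a log2 of -0.42 (95% interval -1.03 to 0.19, adjusted p = 0.94).

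Triploid testis held less rbpms2a than diploid testis in both conditions. In controls the log2 change was -0.85 (95% interval -1.27 to -0.43, adjusted p = 0.032), and under EE2 it was -1.27 (-1.73 to -0.81, adjusted p = 0.0027). The call in controls was lost when diploid control replicate 1, 3 or 4 or triploid control replicate 1, 2 or 3 was left out, with adjusted p up to 0.101. The call under EE2 held in each of 7 omissions.

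The paralog rbpms2b (ENSDARG00000079578, chromosome 7, 48252638 to 48263633) was chosen for mention after its values were seen. It stood at 11.7, 7.60, 8.39 and 8.90 CPM in diploid controls and at 25, 12.7, 17.3 and 8.96 CPM in diploid EE2. Replicate 4 lay within the controls and the other 3 above them. The log2 difference was 0.83 (95% interval 0.28 to 1.38, adjusted p = 0.11), which did not pass. It passed in 1 of 8 omissions, at 1.03 without diploid EE2 replicate 4 (adjusted p = 0.025), and was weakest at 0.54 without diploid EE2 replicate 1 (adjusted p = 0.27). DESeq2 called it with all 15 libraries (adjusted p = 0.045). Triploid controls stood at 7.09, 6.37, 6.32 and 5.32 CPM and triploid EE2 at 8.59, 7.83 and 10.8 CPM, a log2 difference of 0.52 (adjusted p = 0.97). Its neighbour cpeb1b on the same strand, 1403 bases away, had a log2 change of -0.05 in diploids.

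**Figure D4:**
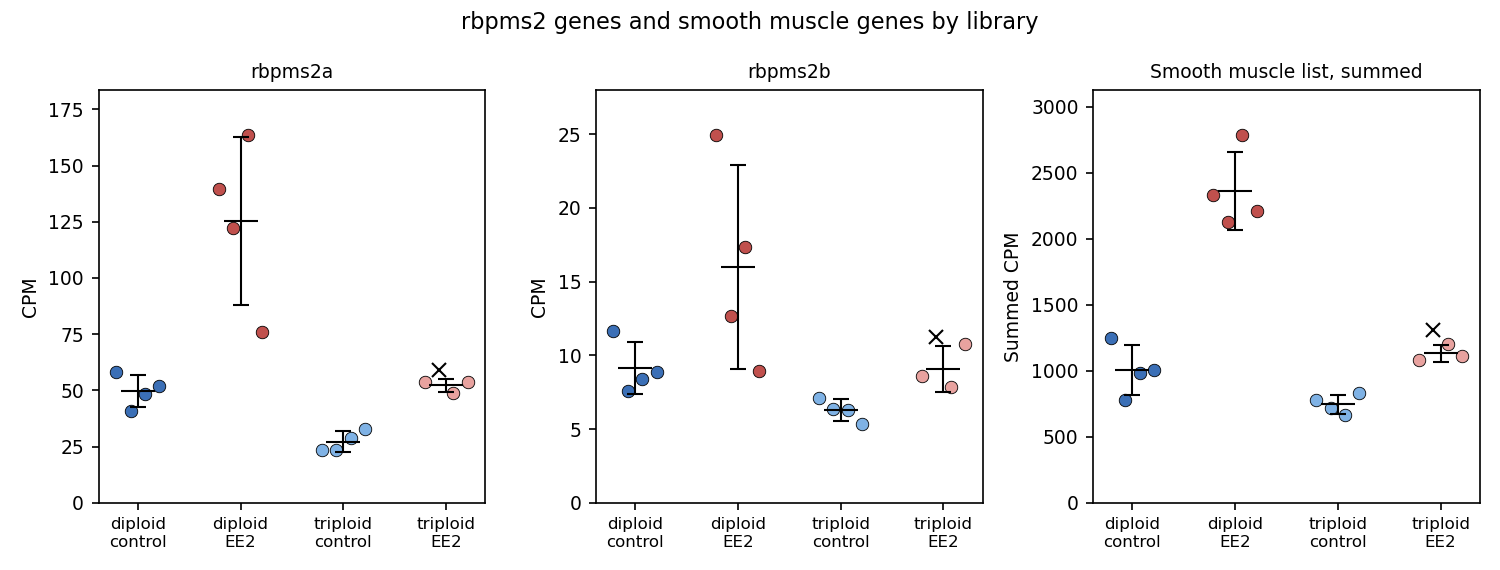
CPM per library of rbpms2a, rbpms2b and the summed smooth muscle list by group, with bars at the mean ± SD; a cross marks triploid EE2 replicate 2, outside the mean. Diploid EE2 is the highest group in mean for all 3 quantities, and its replicate 4 is the lowest of its group for rbpms2a at 75.9 CPM.

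Smooth muscle RNA was highest in the same group as rbpms2a. A list of 18 smooth muscle names was chosen after the values of rbpms2a were seen, and 15 of them matched and were tested. In diploids 6 were higher with EE2 and 0 lower (median log2 0.82). The 6 were acta2, tagln, myh11a, cnn1b, tpm1 and tpm2, which encode parts of the contractile apparatus. Of the 15 log2 changes 13 were above 0, and they ran from -1.59 to 1.94. Over all genes tested 1.94% were called higher and 0.422% lower. The summed list stood at 781 to 1246 CPM in diploid controls, 2123 to 2787 in diploid EE2, 666 to 830 in triploid controls and 1084 to 1205 in triploid EE2, and no gene of it was at 0 in any library. Under EE2, 7 of the 15 were lower in triploids (median log2 -1.0), and in controls 1 was, acta2 (median -0.46). Of all genes, 4.77% under EE2 and 2.16% in controls were called lower. In triploids edgeR called 0 with EE2 (median 0.62), with 7 at an unadjusted p under 0.05, 5 by DESeq2 and 0 by limma-voom. Those 7 were 46.7% of the list, where 5.42% of all genes had such a p. In diploid EE2 replicate 4 the sum was 2212 CPM while rbpms2a was the lowest of its group. The part of smooth muscle in the rbpms2a result was not tested. In bulk tissue, fewer cells of a type and less RNA per cell cannot be told apart.

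The other marker lists set the scale of what changed. Over all genes tested, edgeR called 1.94% higher and 0.422% lower with EE2 in diploids, and 0.0609% and 0.0435% in triploids. An unadjusted p under 0.05 was found for 16.9% of all genes with EE2 in diploids and 5.42% in triploids. Estrogen-responsive genes had 7 of 15 higher with EE2 in diploids and 1 of 15 in triploids by edgeR and by DESeq2, and 2 and 0 by limma-voom. Ovarian somatic genes had 2 of 11 higher in diploids and 0 in triploids by edgeR, where 3 had an unadjusted p under 0.05, DESeq2 called 1 and limma-voom 0. The gene pgr is on both the ovarian somatic and the estrogen-responsive list, so the counts of these 2 lists are not separate. Male germ cell genes had 0 of 16 called with EE2 in diploids or triploids by edgeR (6 and 5 at an unadjusted p under 0.05), while DESeq2 called 2 lower and 1 higher and limma-voom 0 and 0. The 6 and 5 genes were 37.5% and 31.2% of that list, where 16.9% and 5.42% of all genes had such a p. Testis somatic genes had 5 of 13 lower with EE2 in diploids and 2 in triploids. Between triploids and diploids 3 of the 13 were lower in controls (median log2 -0.52) and 4 under EE2 (median -0.55). Over all genes tested 2.16% and 4.77% were called lower. The log2 differences of amh were -2.15 and -2.04 (edgeR adjusted p = 2.9e-04 and 0.0011). The part of testis somatic cells in the lower rbpms2a of triploids was not tested. Lists of blood, liver and pancreas differed widely between libraries. The exocrine pancreas sum ran from 92.8 to 8356 CPM in diploid controls (highest in replicate 4), 79.1 to 5218 in diploid EE2 (highest in replicate 1), 87.1 to 306 in triploid controls and 28.4 to 212 in triploid EE2. Its 8 genes had a median log2 of -3.79 between triploid and diploid controls and -4.30 between the EE2 groups, the comparisons in which rbpms2a was called lower. By edgeR 0 of the 8 were called in each, with 6 in each at an unadjusted p under 0.05, while DESeq2 called 0 and 2 and limma-voom 0 and 0. The 6 were 75% of that list, where 17.6% and 19.6% of all genes had such a p. The erythrocyte sum was 43.4 to 741 CPM in diploid EE2 (highest in replicate 1) and at most 45.4 CPM in the other groups. The liver sum ran from 60.7 to 923 CPM over the libraries compared. The part of these cells in the results was not tested.

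A wider list of 61 oocyte and maternal names, with 49 matched and 40 tested, was read in the same fit. It was not limited to genes scarce in testis. Over the 16 libraries kpna7 stood at 0.347 to 2.03 CPM, but dazl at 299 to 600 CPM and ybx1 at 448 to 811 CPM. The gene dazl is also on the male germ cell list. By edgeR 0 of 40 were called with EE2 in diploids and 0 in triploids, with 6 and 2 at an unadjusted p under 0.05, and DESeq2 and limma-voom called 0 in each. The 6 and 2 were 15% and 5% of the list, near the 16.9% and 5.42% of all genes. Between ploidies, cdc20, which drives exit from metaphase, was higher in triploid controls (log2 0.59, adjusted p = 0.035). Under EE2 cdc20 (0.72, adjusted p = 0.011) and the cyclin gene ccnb1 (0.96, adjusted p = 0.0065) were higher in triploids. These were 1 of 40 in controls and 2 of 40 under EE2, where 0.574% and 1.05% of all genes were called higher. DESeq2 called 2 higher in controls, and 2 higher and 1 lower under EE2. Both cdc20 and ccnb1 also serve in dividing cells of other tissues.

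Diploid EE2 replicate 4 held the highest level of several near-silent oocyte genes. Being highest in CPM for several members was not limited to it: of the 28 genes with a count, diploid control replicate 1 was highest for 6, diploid EE2 replicate 4 for 5 and triploid EE2 replicate 3 for 4. A low TMM factor raises the CPM of a library, and that of diploid control replicate 1 was 0.773. The part of this scaling in its 6 genes was not tested, and the count was not made in TPM. In diploid EE2 replicate 4, the linker histone gene h1m, which the mother supplies to the egg, had 22 read pairs (2.63 CPM, 95% Wilson interval 1.74 to 3.98), against at most 0.950 CPM elsewhere. The egg coat genes zp2.5, zp3a.1 and zp3 had 11, 17 and 19 read pairs there. These were 1.31, 2.03 and 2.27 CPM, against at most 0.317, 0.843 and 1.08 CPM in other libraries, and the 95% Wilson intervals were 0.734 to 2.35, 1.27 to 3.25 and 1.45 to 3.55 CPM. The egg histone gene h2af1al of the wider list had 15 read pairs there (1.79 CPM, 95% Wilson interval 1.09 to 2.96), against at most 0.338 CPM. These intervals cover counting error only.

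The set of these genes was noticed in the values, so their count carries no test. When all 32520 genes were ranked in each library by their CPM over the highest of the other 15 libraries, with 0.5 CPM added to both, the first 25 of diploid EE2 replicate 4 held 4 genes of the list and h2af1al. The other 15 libraries held 0, except triploid EE2 replicate 3, which held 1 (wee2). In diploid EE2 replicate 4 figla had 3 read pairs, foxl2l 6, zp2.1 0, mos 0, cyp19a1a 0 and foxl2a 1. The other 3 diploid EE2 libraries stood at 0.134 to 0.229 CPM for h1m and at 0 to 0.134 CPM for zp2.5. Whether the reads of these genes share a source was not tested.

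**Figure D5:**
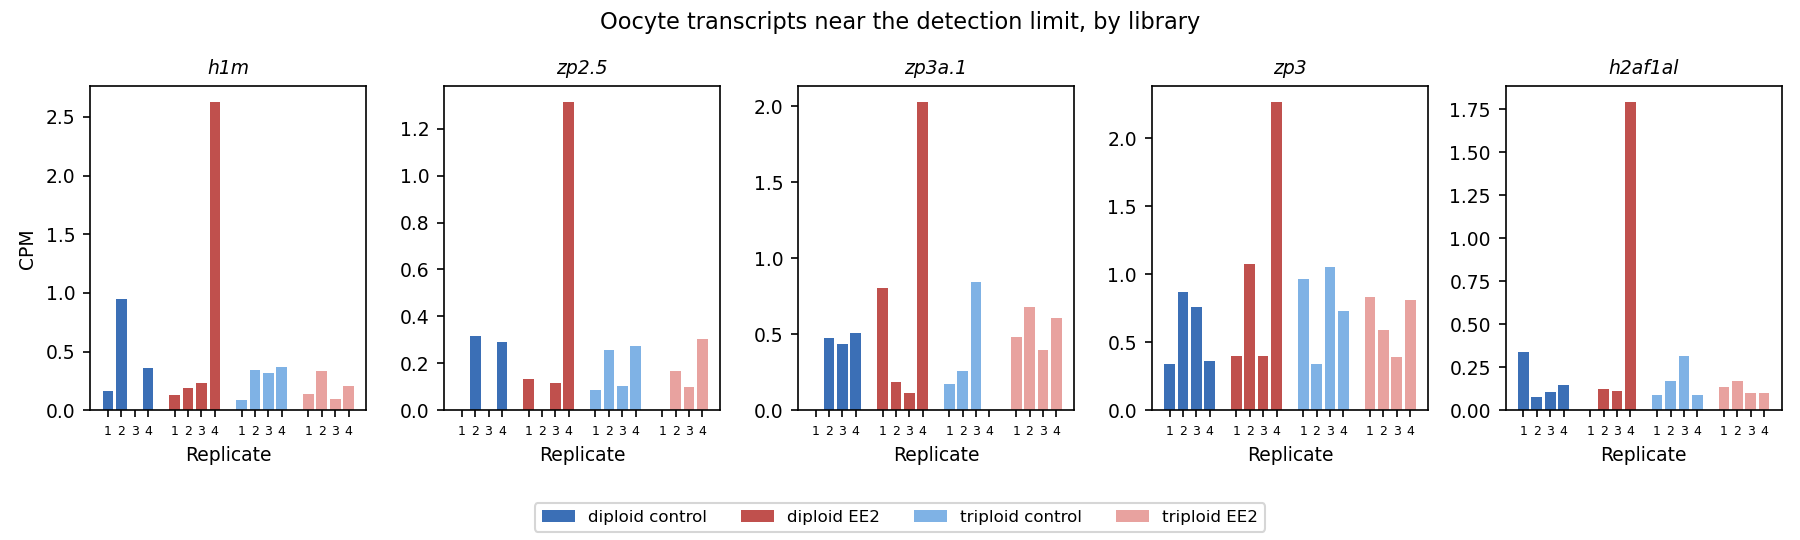
CPM of h1m, zp2.5, zp3a.1, zp3 and h2af1al in each of the 16 libraries, as bars from 0. Diploid EE2 replicate 4 is the highest library for each of the 5 genes, at 1.31 to 2.63 CPM.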

How the data were processed

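RNA was read from testis in 16 strand-specific libraries made after removal of ribosomal RNA, per the labels' protocols. The deposited values are counts, raw read pairs per gene. Per the file headers, featureCounts 2.0.6 summed pairs by strand over exons of the Ensembl 113 annotation (GRCz11) from alignments made with STAR, whose version and settings are not stated in the headers or labels. Gene length in bases, in another unit than counts, is also deposited and served here for TPM.

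edgeR 4.0.16 (R 4.3.3) was run on all 32520 genes, 29201 of them with a symbol. Genes kept by filterByExpr were scaled by TMM and fitted by robust glmQLFit with 1 mean per group over 15 libraries. Contrasts were tested by the quasi-likelihood F test with Benjamini-Hochberg adjustment. The median biological coefficient of variation was 20.4%. TPM is not TMM-scaled. Overlap of groups was judged in TMM-scaled CPM. On simulated counts for EE2 in diploids (22724 genes), 51% of 2-fold and 84% of 4-fold changes were recovered. The changed genes were drawn at random from all genes past the filter, not at the levels of the members. These shares therefore do not give the recovery for the members. The labels do not say that replicates came from separate animals, so a p-value here covers the spread between these libraries alone, which may be technical.

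The members and lists were chosen with earlier results of these data known. Values per library follow a rule: genes called in any comparison, gdf9, bmp15, figla, nobox, zar1, zp3b, buc, foxl2l, and the 5 with the highest TPM in diploid controls. Other genes given per library and the library ranking were chosen after values were seen. DESeq2 1.42.0, limma-voom (limma 3.58.1), no filter, inclusion of the titled outlier, a replicate block and omissions of libraries were alternatives.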

Additional observations from a re-analysis of the deposited data

Results flagged for a closer look

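Within groups of 4 libraries, 13 of 110 sets of values had a library far from the other 3. The cutoff flags about 1 in 20 sets of normally distributed values, and several flags here rest on 0 to 4 read pairs. A set with 1 read pair in 1 library and 0 in the other 3 is always flagged. The 13 of 110 therefore cannot be read as an excess over chance. Diploid EE2 replicate 4 was far above its group for zp3b (8.96 CPM), buc (17.1 CPM), h1m (2.63 CPM), zp2.5 (1.31 CPM), zp2.2 (0.478 CPM) and zp2.3 (0.119 CPM). Diploid control replicate 1 was far above for npm2b (84.5 CPM) and npm2a (10.5 CPM) and far below for zp3a.1 (0 CPM). The flags are on CPM, and in TPM npm2b stood at 15.7 ± 3.89 in diploid controls (SD, n = 4). Triploid EE2 replicate 3 was far above for wee2 (36.2 CPM), and triploid control replicate 2 for zp2.1 (0.0861 CPM, from 1 read pair). Triploid EE2 replicate 2, titled an outlier, was far above its group for foxl2l (1.61 CPM) and far below for npm2b (20.5 CPM).

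That library, which the main fit did not use, stood above all 8 controls for foxl2l (1.61 CPM against at most 0.876). It also did for rbpms2a (58.9 CPM against at most 58.0) and for zp2.1 (0.170 CPM, from 2 read pairs, against at most 0.0861). For rbpms2a the difference from the highest diploid control was small, while it was above every triploid control. The egg coat gene zp3d.2 stood at 29.1 CPM there, the lowest of the 16 libraries. For gdf9, bmp15, zar1, buc and rbpms2b it stood at 2.97, 5.26, 2.97, 19.6 and 11.2 CPM, above every other triploid library. For zp3b and slbp2 it stood at 3.74 and 6.62 CPM, below every other triploid library, as for npm2b. It held 14.9 CPM of lhx8a, 1.53 of zar1l, 4.67 of npm2a and 0 of figla, within the range of the other triploid libraries.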

How the results depend on the processing

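Among the 19 tested genes the main counts of calls were 1 (EE2, diploids), 0 (EE2, triploids), 1 for each ploidy comparison and 0 for the interaction, and no log2 difference of a called gene changed sign under any alternative run. DESeq2 called 3 for EE2 in diploids (zar1l, rbpms2a, rbpms2b), 1 for EE2 in triploids (rbpms2a) and 2 for ploidy under EE2 (lhx8a, rbpms2a). With only the compared groups in the fit, 1 was called for EE2 in triploids. For ploidy in controls 0 were called with limma-voom (rbpms2a, adjusted p = 0.051), with the replicate block (0.062) and with both diploid libraries numbered 1 left out (0.064). The replicate block changed no other count of calls. No pairing by the shared numbers was seen: same-number correlations of deviations from the group means ran from -0.169 to 0.118. That cannot exclude a shared batch, on which the labels are silent. Without the filter and without diploid EE2 replicate 4, an alternative added after the data were seen, 2 were called for EE2 in diploids and 2 for ploidy under EE2 (rbpms2a and rbpms2b). Over omissions of a single library the counts ran from 1 to 2 for EE2 in diploids, 0 to 0 in triploids, 0 to 1 for ploidy in controls, 1 to 2 for ploidy under EE2 and 0 to 0 for the interaction. The cause of these shifts was not tested. Depth limits the genes under 0.5 CPM, which rest on a few read pairs.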
